A study of Mus musculus with 14 samples.

Results

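Metabotropic glutamate receptors are G protein-coupled receptors that sense glutamate and act through second messengers instead of an ion pore. Group I receptors, to which Grm5 belongs, couple to Gq and phospholipase C, and they drive a form of long-term synaptic depression that needs new protein synthesis. Group II (Grm2 and Grm3) and group III (Grm4, Grm7 and Grm8) receptors couple to Gi/o and lower cyclic AMP, and many of them sit on axon terminals where they reduce transmitter release. The mGluR theory of fragile X syndrome holds that loss of FMRP, an RNA-binding protein that restrains translation, leaves the protein synthesis downstream of group I receptors unchecked. Here 6 genes of the family, Grm2, Grm3, Grm4, Grm5, Grm7 and Grm8, were taken by gene symbol from a table of 23412 genes and described in cortex with and without Fmr1. Their membership was set by name and used no measured value. All 6 passed the filter on low counts in RNA and in footprints.

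The libraries came from mouse cerebral cortex. Control mice carried a floxed Rpl22 allele on both chromosomes (Rpl22flox/flox) and CamKCre+, and knockout (KO) mice carried the same 2 alleles with Fmr1X-Y. Rpl22flox is the RiboTag allele, which is recombined only in cells that express the Cre, while the protocols describe whole brain lysates and name no immunoprecipitation, so the values cover all cell types of the tissue. The labels give no age, and only the mouse numbers say that the libraries came from separate animals. RNA was sequenced from 4 controls (mice 1, 3, 6 and 8) and 4 KO animals (mice 2, 4, 5 and 7). Ribosome profiling, which sequences the mRNA fragments that ribosomes shield from nuclease (footprints), was done on 3 controls (mice 1, 3 and 9) and 3 KO animals (mice 2, 4 and 10). In bulk tissue, fewer cells of a type and less RNA per cell cannot be told apart.

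Total counts were 8847547 to 11371851 per RNA library and 4124065 to 6033030 per footprint library. Fmr1, the check of the labels, fell by 1.93 ± 0.095 on the log2 scale in KO RNA (SE, adjusted p = 7.08e-08, edgeR) and by 3.93 ± 0.11 in footprints (SE, adjusted p = 1.02e-53, edgeR). The RNA libraries were not equally far apart. Distance was a chi-square statistic per degree of freedom over genes with at least 20 counts in a library pair. KO mice 2, 4 and 7 differed from each other by only 1.18 to 1.32 and control mice 1 and 3 by 1.99. KO mouse 5 stood 5.64 to 6.02 from the other KO mice, and control mouse 8 stood 4.03 to 11.8 from the other controls. Footprint pairs of the same genotype lay between 1.15 and 1.42, about as close as KO RNA mice 2, 4 and 7. No alternative summed footprint libraries. The cortical excitatory markers Slc17a7, Camk2a, Neurod6, Tbr1 and Nrgn were present in each library. Of 5 markers of cerebellar granule cells, where Grm4 is known to be abundant, Gabra6 had 0 RNA counts in both genotypes and a mean of 0.0747 CPM in KO footprints. The others had means of 15.4 (Zic1), 8.25 (Neurod1), 4.85 (Cbln1) and 0.182 CPM (Cbln3) in control RNA, and Zic1 was called lower in KO RNA (-0.40, adjusted p = 0.0294, edgeR).

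The first comparison asked whether the receptor mRNAs differed with genotype. Grm2 mRNA was higher in KO cortex, and the differences of the other 5 members did not pass the test. Values are CPM, a library-size-scaled count adjusted with TMM factors, and a gene is called at an adjusted p under 0.05. By that rule 1 of the 6 members was called in RNA, where 7.41% of the 13507 genes tested were called, 3.53% higher and 3.88% lower in KO. The members' median log2 fold change was 0.066, against -0.0012 over all genes tested.

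Grm2 encodes a presynaptic group II receptor. Its RNA was at 53.9, 55.5, 59.0 and 57.2 CPM in control mice 1, 3, 6 and 8 and at 68.2, 69.5, 70.6 and 68.7 CPM in KO mice 2, 4, 5 and 7. The genotypes did not overlap, and mice 5 and 8, which stood apart from their groups over all genes, lay with the rest here. The log2 fold change was 0.30 ± 0.059 (SE, n = 4 per genotype, adjusted p = 0.00935, edgeR), a rise of 22.8%. The call was lost when the near-identical libraries, KO mice 2, 4 and 7 and control mice 1 and 3, were each pooled by summing (0.29, adjusted p = 0.268, edgeR), and when mice 5 to 8 alone were compared (0.26, adjusted p = 0.310, edgeR).

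Grm3 encodes the other group II receptor, which is known from astrocytes as well as neurons. Its RNA was at 331, 337, 335 and 346 CPM in the controls, in the mouse order given for Grm2, and at 363, 361, 355 and 354 CPM in the KO mice. All KO values lay above all control values, as they did for Grm2. These were 2 of 6 members whose RNA libraries did not overlap, where 7.1% of all genes tested had KO entirely above control, 7.97% entirely below and 15.1% either. The difference was small, 0.086 ± 0.047 on the log2 scale (SE, 95% interval -0.014 to 0.19), and was not called (adjusted p = 0.288, edgeR). In mice 1 to 4 alone it was 0.12 and called (adjusted p = 0.0204, edgeR).

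Grm5, the group I receptor of the set, was at 464, 467, 462 and 475 CPM in control mice 1, 3, 6 and 8. In KO mice 2, 4, 5 and 7 it was at 409, 432, 483 and 407 CPM. KO mouse 5 was above all controls and the other KO mice were below all of them. The log2 fold change of -0.11 ± 0.059 (SE, 95% interval -0.24 to 0.016) was not called (adjusted p = 0.281, edgeR). Without KO mouse 5 it was -0.16 and called (adjusted p = 0.0338, edgeR), and in mice 1 to 4 alone it was -0.14 and called (adjusted p = 0.00739, edgeR).

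The group III receptors, which act as autoreceptors on axon terminals, overlapped between genotypes in RNA. Grm7 lay between 118 and 123 CPM in controls and between 123 and 128 CPM in KO mice, a log2 difference of 0.045 ± 0.049 (SE, adjusted p = 0.633, edgeR). Grm4 lay between 37.4 and 40.2 CPM in controls and between 38.7 and 44.3 CPM in KO mice (0.099 ± 0.072 SE, adjusted p = 0.447, edgeR). Grm8 lay between 37.8 and 45.8 CPM in controls and between 36.4 and 40.4 CPM in KO mice (-0.096 ± 0.080 SE, adjusted p = 0.519, edgeR). The 95% intervals of these log2 fold changes were -0.061 to 0.15 for Grm7, -0.055 to 0.25 for Grm4 and -0.27 to 0.076 for Grm8.

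**Figure D1:**
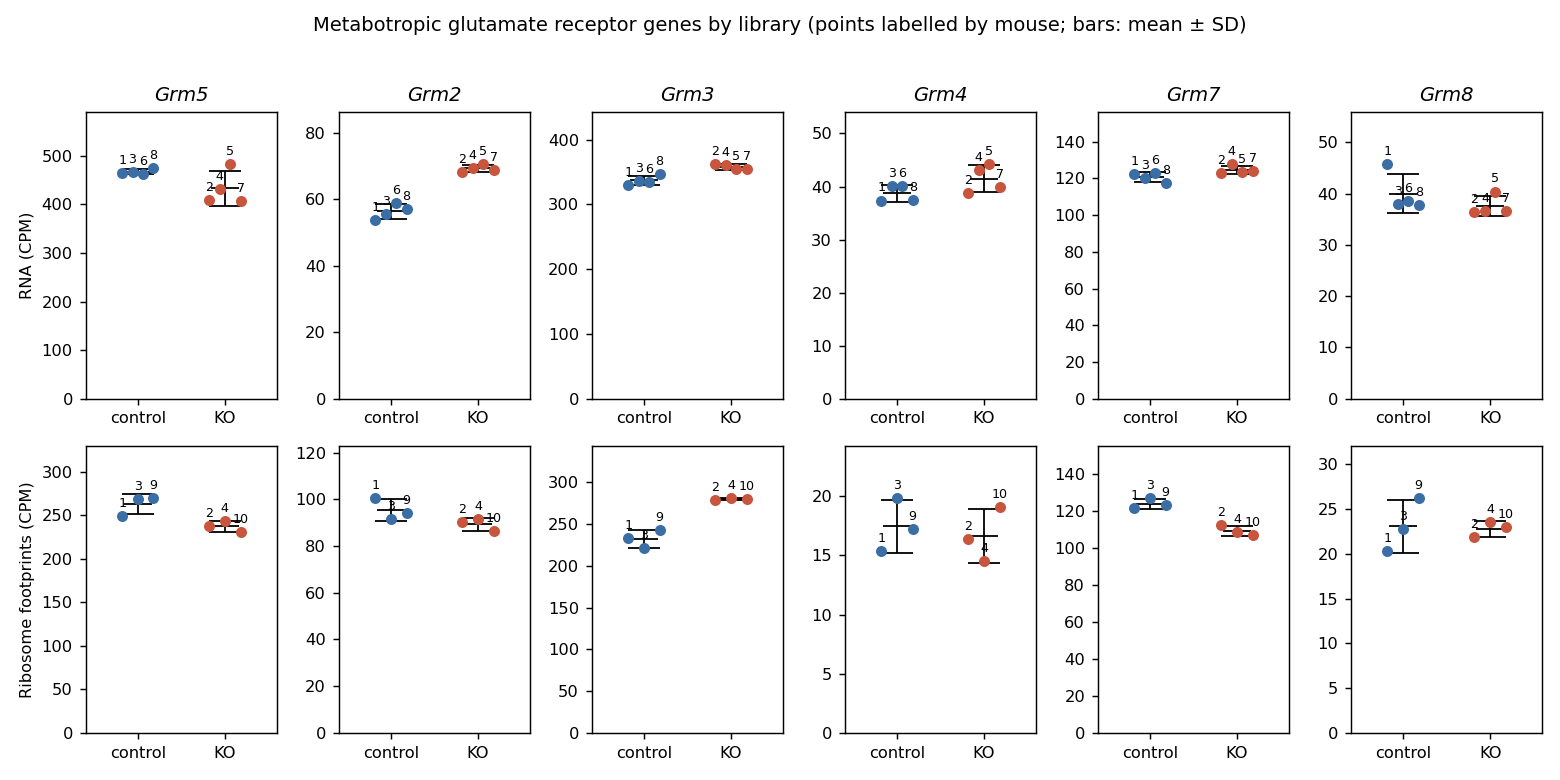
CPM of each receptor gene in every RNA library (upper row, 4 control and 4 KO mice) and every footprint library (lower row, 3 and 3), on axes that start at 0 and differ between panels; points carry the mouse number, and bars are the mean ± SD. Grm2 stands higher in KO RNA (68.2 to 70.6 against 53.9 to 59.0 CPM) but overlaps in footprints, while Grm3 footprints stand higher and Grm5 and Grm7 footprints lower in KO mice.

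The second comparison asked whether ribosome footprints on the receptor mRNAs differed with genotype. Grm3 footprints rose, Grm5 and Grm7 footprints fell, and Grm2, Grm4 and Grm8 were not called. That is 3 of 6 members called, where 25.5% of the 12158 genes tested were called, 11.9% higher and 13.6% lower in KO mice. On plain library sizes in place of TMM, 66.3% of all calls were higher in KO mice, against 46.7% with TMM. The members' median log2 fold change was -0.083, against 0.0054 over all genes tested.

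Grm3 footprints were at 233, 221 and 243 CPM in control mice 1, 3 and 9 and at 279, 281 and 280 CPM in KO mice 2, 4 and 10. The KO values lay within a few CPM of each other and above all controls. Footprint libraries of 3 of the 6 members did not overlap, as for 37.3% of all genes tested, 18.1% with KO entirely above control. The log2 fold change was 0.27 ± 0.039 (SE, n = 3 per genotype, adjusted p = 1.31e-08, edgeR), a rise of 20.5%. It was called under each of the 13 alternatives run for footprints, between 0.23 and 0.33.

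Grm5 footprints were at 249, 268 and 270 CPM in control mice 1, 3 and 9 and at 237, 243 and 231 CPM in KO mice 2, 4 and 10. Each KO value was below each control value, as in 19.2% of all genes tested, and control mouse 1 was the nearest to the KO mice. The log2 fold change was -0.15 ± 0.039 (SE, n = 3 per genotype, adjusted p = 0.00141, edgeR), so Grm5 footprints fell by 10.1%. On plain library sizes the fold change was -0.093 and was not called (adjusted p = 0.0618, edgeR), nor was it in one fit over all 14 libraries (-0.15, adjusted p = 0.0985, edgeR).

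Grm7 encodes a receptor that is placed in the active zone of terminals. Its footprints were at 122, 127 and 123 CPM in control mice 1, 3 and 9 and at 112, 109 and 107 CPM in KO mice 2, 4 and 10. The genotypes did not overlap, although Grm7 RNA was not called and its genotypes overlapped. The log2 fold change was -0.19 ± 0.055 (SE, n = 3 per genotype, adjusted p = 0.00662, edgeR), and Grm7 footprints fell by 12.1%. The call was lost on plain library sizes (-0.13, adjusted p = 0.0757, edgeR) and with DESeq2 (-0.19, adjusted p = 0.0603).

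Grm2 footprints were at 101, 91.4 and 94.1 CPM in control mice 1, 3 and 9 and at 90.4, 91.6 and 86.3 CPM in KO mice 2, 4 and 10. The genotypes overlapped, so the higher Grm2 RNA of KO mice had no counterpart in footprints. The log2 fold change was -0.088 ± 0.062 (SE, 95% interval -0.21 to 0.036, adjusted p = 0.329, edgeR).

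Grm4 and Grm8 were the least covered members, with 65 to 117 and 86 to 148 footprints per library. Grm4 footprints lay between 15.3 and 19.8 CPM in controls and between 14.6 and 19.1 CPM in KO mice (-0.078 ± 0.14 SE, adjusted p = 0.744, edgeR). Grm8 footprints lay between 20.3 and 26.2 CPM in controls and between 21.8 and 23.5 CPM in KO mice (-0.029 ± 0.12 SE, adjusted p = 0.895, edgeR). The 95% intervals reached from -0.36 to 0.20 for Grm4 and from -0.27 to 0.21 for Grm8. A change of the size seen for Grm5 or Grm7 was therefore not detectable at this depth.

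Because a scaling between libraries bears on small differences, counts of one receptor were also set against another within each library, which no scaling touches. Per 100 Grm5 footprints there were 93.5, 82.4 and 90.3 Grm3 footprints in control mice 1, 3 and 9 and 118, 116 and 121 in KO mice 2, 4 and 10. The balance of Grm3 to Grm5 footprints was higher in each KO library. In RNA the same ratio was 71.2 to 72.9 in controls and 83.6 to 88.6 in KO mice 2, 4 and 7, while KO mouse 5, at 73.4, was close to the controls.

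Grm3 footprints per 100 Grm7 footprints rose in the same way, from 174 to 198 in controls to 248 to 262 in KO mice, whereas the RNA ratios overlapped (270 to 294 and 282 to 295). Within group II, Grm2 counts per 100 Grm3 counts were higher in KO RNA (18.8 to 19.9 against 16.3 to 17.6) and lower in KO footprints (30.8 to 32.6 against 38.7 to 43.2). The 2 group II receptors thus shifted against each other in opposite directions in the 2 assays. These ratios are given as a description. They reuse the counts behind the fold changes above, for pairs whose fold changes already differed, so they are not an independent check. How often other gene pairs separate in this way was not tested. The ratios compare libraries, not the abundance of one receptor with another, since the genes differ in length.

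**Figure D2:**
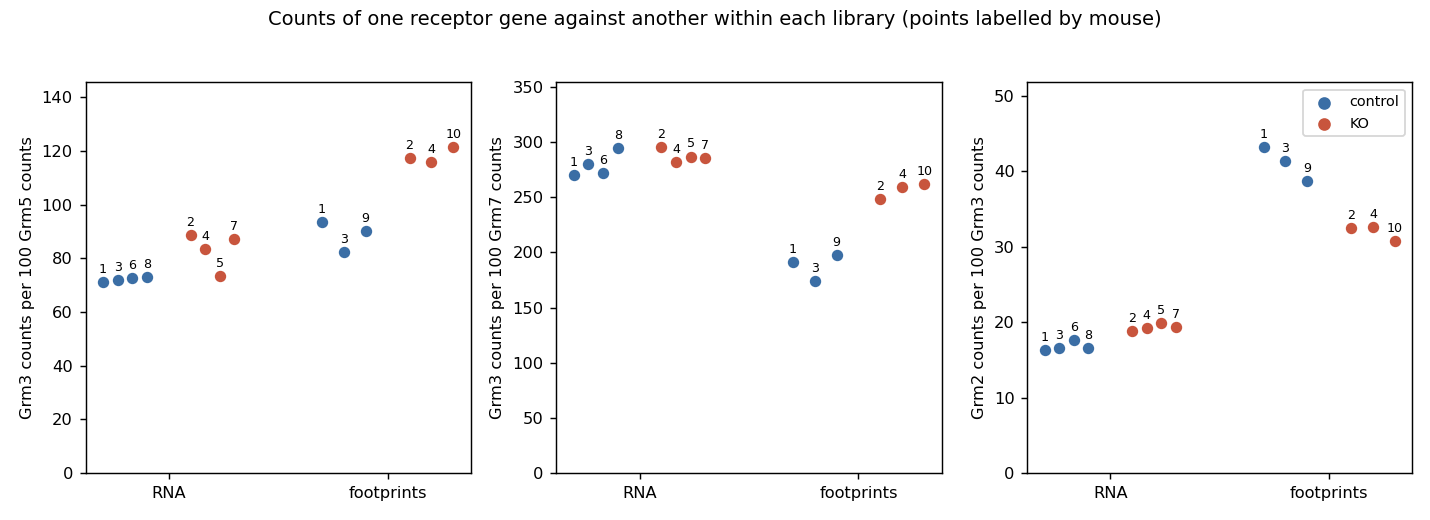
Counts of one receptor gene per 100 counts of another within each RNA and footprint library, for Grm3 against Grm5, Grm3 against Grm7 and Grm2 against Grm3; points carry the mouse number. Grm3 footprints per 100 Grm5 footprints lie between 82.4 and 93.5 in control mice and between 116 and 121 in KO mice, and the Grm2 to Grm3 ratio is higher in KO RNA but lower in KO footprints.

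Footprints were then set against RNA, the translational efficiency (TE), tested as the interaction of genotype and assay over all 14 libraries. Grm2 and Grm7 had lower TE in KO mice and the other 4 members were not called. That is 2 of 6 members, both lower, where 7.81% of the 12145 genes tested were called, 3.4% higher and 4.41% lower. On plain library sizes 67.6% of all TE calls were higher, against 43.5% with TMM. With the mouse as a block, which pairs the assays of mice 1 to 4, 1812 genes were called, against 949 without it. A mouse measured by only 1 assay adds nothing to TE under this block, so the comparison then rests on mice 1 to 4. With only mice 1 to 4, 1809 genes were called. The higher number can therefore not be credited to the pairing. Among the TE alternatives counted below, these 2 settings use the same mice and are not separate checks.

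Grm2 TE changed by -0.39 ± 0.083 on the log2 scale (SE, n = 14 libraries, adjusted p = 0.00469, edgeR), a level of 76.1% of control. It was called under each of the 20 alternatives run for TE, between -0.42 and -0.33. In the mice measured by both assays, the log2 ratio of footprint to RNA CPM was 0.90 and 0.72 in control mice 1 and 3 and 0.41 and 0.40 in KO mice 2 and 4. Both parts of the ratio leaned the same way, with more RNA and slightly fewer footprints in KO mice, and only the RNA part was called on its own.

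Grm7 TE changed by -0.24 ± 0.073 on the log2 scale (SE, n = 14 libraries, adjusted p = 0.0484, edgeR), close to the threshold. The call was lost under 16 of the 20 alternatives, where adjusted p-values reached 0.176, and with the mouse as a block it was at -0.23 (adjusted p = 0.0573, edgeR). Each omission of 1 mouse other than KO mouse 5 lost the call, with adjusted p-values of 0.0526 (without mouse 8) to 0.176 (without mouse 4), while the fold change stayed between -0.26 and -0.21. Its log2 ratios were -0.012 and 0.082 in control mice 1 and 3 and -0.13 and -0.24 in KO mice 2 and 4. These did not overlap, but 2 mice per genotype can separate by chance. The share of all genes that do so is not given here.

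Grm3 TE leaned upwards (0.17 ± 0.065 SE, adjusted p = 0.105, edgeR), and its log2 ratios were -0.51 and -0.61 in control mice 1 and 3 and -0.38 and -0.36 in KO mice 2 and 4. It was called with plain library sizes (0.24, adjusted p = 0.0248, edgeR) and in mice 1 to 4 alone (0.18, adjusted p = 0.0485, edgeR). Grm5 TE was near 0 (-0.045 ± 0.079 SE, 95% interval -0.21 to 0.12, adjusted p = 0.784, edgeR), since its RNA and footprint changes were of similar size. Grm4 (-0.18 ± 0.15 SE, adjusted p = 0.516, edgeR) and Grm8 (0.061 ± 0.14 SE, adjusted p = 0.847, edgeR) had wide intervals, from -0.50 to 0.13 and from -0.24 to 0.36.

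**Figure D3:**
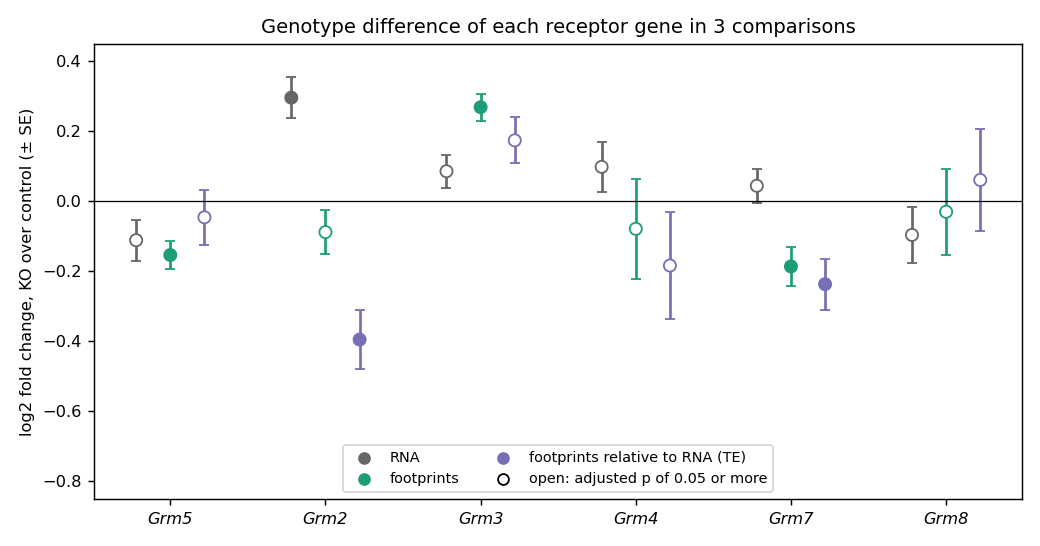
Log2 fold change of KO over control for each receptor gene in RNA, in footprints and in footprints relative to RNA, with bars of 1 SE; filled points have an adjusted p under 0.05. Grm2 is filled in RNA (0.30) and TE (-0.39), Grm3 in footprints (0.27), Grm5 in footprints (-0.15) and Grm7 in footprints (-0.19) and TE (-0.24).

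Receptors differed widely in how many footprints they had per RNA in control cortex. The log2 ratio of mean footprint to mean RNA CPM was 0.76 for Grm2, above 87.2% of the 12145 genes tested in both assays, and 0.036 for Grm7, above 58.2% of them. It was -0.54 for Grm3, -0.79 for Grm8, -0.83 for Grm5 and -1.15 for Grm4, which stood above 14.8% of genes. The median gene was at -0.13. Grm4 lay below Grm5 in both control mice 1 and 3, while Grm8 overlapped both genes. The ratios in these mice were -1.17 and -0.74 for Grm8, -0.90 and -0.80 for Grm5 and -1.28 and -1.02 for Grm4.

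**Figure D4:**
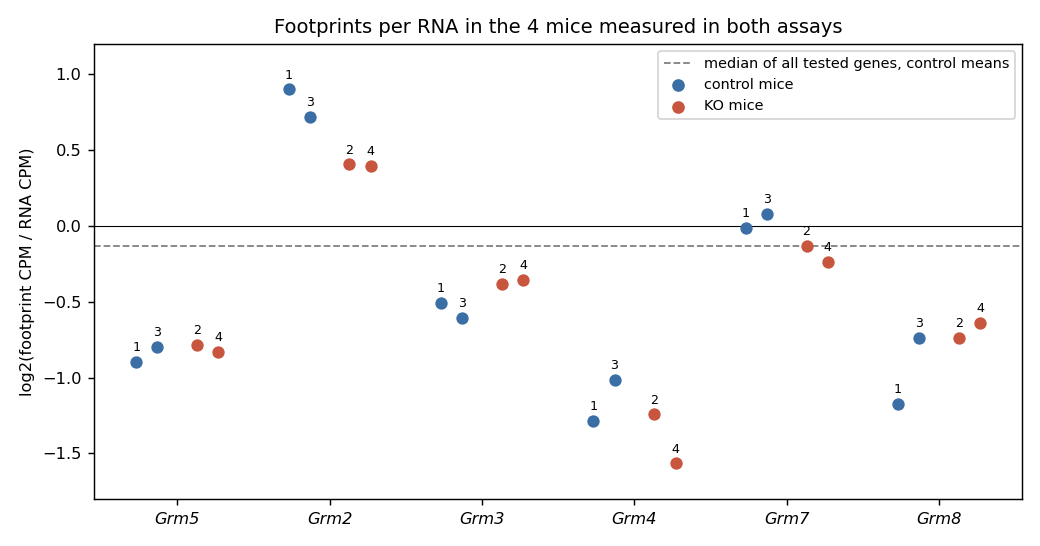
Log2 ratio of footprint CPM to RNA CPM for each receptor gene in the 4 mice measured by both assays, with the median of all tested genes in control cortex as a dashed line (-0.13). Grm2 has the highest ratios (0.72 and 0.90 in control mice 3 and 1) and lies lower in both KO mice, while Grm5 overlaps between genotypes.

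Part of this order depends on the region counted. Each RNA library also has a column of exon counts, and the columns used above hold a share of it that differs between members. Grm5 had 47.4% ± 2.60 (SD, n = 8 libraries) of its exon counts in the columns used above, against 65.6% for the median gene. Grm4 had 92.7% ± 1.84 (SD, n = 8), and Grm2, Grm3, Grm7 and Grm8 lay between 72.9% and 78.6%. On average the columns used above thus held the smaller part of the Grm5 exon counts, with shares of 43.0% to 52.1% in single libraries. Set against exon counts, Grm5 became the lowest of the 6 at -1.03, below Grm4 at -0.39 and Grm8 at -0.30, and Grm2 stayed the highest at 1.26. The mean share of Grm5 was 47.5% in controls and 47.4% in KO mice, while it was 77.0% and 80.3% for Grm2 and 71.6% and 74.2% for Grm7. With exon columns, the TE change of Grm2 was -0.33 (adjusted p = 0.0339, edgeR) and that of Grm7 was -0.18 and not called (adjusted p = 0.0974, edgeR).

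The receptors' pathways were described through 4 gene lists of 52 genes, all of which were tested. In footprints 25 of the 52 were called, 10 higher and 15 lower, where 25.5% of all genes tested were called. The balance turned on plain library sizes (13 higher and 9 lower), and 13 were called in one fit over all 14 libraries (4 higher and 9 lower). In TE 7 were called, 6 of them lower, against 7.81% of all genes, and in RNA 6 were called, all higher, against 7.41%. The TE calls were 3 higher and 5 lower on plain library sizes, 4 higher and 12 lower with the mouse as a block and 3 higher and 9 lower without mouse 5. The mouse block called 1812 of the 12145 genes tested for TE, against 949 in the main fit. The RNA calls were 3 without mouse 2, 2 without mouse 4 and 10 without mouse 8. With only mice 1 to 4, RNA calls in the lower direction appeared in 2 of the lists, and with DESeq2 or without mouse 5 in 1. The median log2 fold changes of the 52 genes were -0.066 in footprints, -0.094 in TE and 0.037 in RNA, against 0.0054, -0.011 and -0.0012 over all genes tested. All 6 RNA calls were lost with the near-identical libraries summed and with only mice 5 to 8.

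The proteins that bind and anchor the receptors formed the first list. Of 16 genes, 9 were called in footprints, 2 higher and 7 lower (25.5% of all genes were called), and in TE 1 was called higher and 3 lower (7.81% of all genes). In footprints 1 was called higher and 5 lower with DESeq2, and 5 lower alone in one fit over all 14 libraries. With the mouse as a block, 2 were called higher and 7 lower in TE, in a setting that called 1812 of 12145 genes tested. The 3 Shank genes encode scaffolds that tie group I receptors, through Homer, to the postsynaptic density. Shank1 footprints went from 112 ± 5.65 to 84.9 ± 3.06 CPM (SD, n = 3 each) while its RNA went from 326 ± 22.7 to 417 ± 20.5 CPM (SD, n = 4 each). Its log2 fold changes were 0.36 ± 0.061 in RNA (SE, adjusted p = 0.00376, edgeR), -0.40 ± 0.061 in footprints (SE, adjusted p = 6.88e-08, edgeR) and -0.76 ± 0.091 in TE (SE, adjusted p = 1.96e-05, edgeR).

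Shank2 fell by 0.61 ± 0.063 in footprints (SE, adjusted p = 6.07e-14, edgeR) and by 0.67 ± 0.097 in TE (SE, adjusted p = 0.000140, edgeR). Shank3 fell by 0.54 ± 0.11 in TE (SE, adjusted p = 0.00332, edgeR). The TE calls of the 3 Shank genes were kept under each of the 20 alternatives. Frmpd4, a scaffold that links Grm5 to Homer, fell by 0.39 ± 0.074 in footprints (SE, adjusted p = 1.49e-05, edgeR). Homer2, a member of the adaptor family that joins group I receptors to Shank and to IP3 receptors, fell by 0.39 ± 0.14 in footprints (SE, adjusted p = 0.0359, edgeR). Its relative Homer1 went the other way, at 0.20 ± 0.058 in footprints (SE, adjusted p = 0.00656, edgeR), and Homer3 was at 0.056 ± 0.27 (SE, not called), both named after their values were seen. The Homer1 call was lost with DESeq2 (adjusted p = 0.0645), in one fit over all 14 libraries (0.0621, edgeR) and without mouse 1 (0.0623) or 10 (0.134). The Homer2 call was lost under 7 of 13 alternatives, among them those without mouse 2 (adjusted p = 0.164, edgeR), 3 (0.148), 9 (0.106) or 10 (0.124). Rgs4, which speeds up GTP hydrolysis on Gq and Gi/o, rose by 0.28 ± 0.073 in TE (SE, adjusted p = 0.0185, edgeR). Without mouse 2 it was at 0.28 (adjusted p = 0.0927, edgeR) and without mouse 4 at 0.30 (adjusted p = 0.0612, edgeR), of the same size but not called.

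Along the Gq route of Grm5, none of 12 genes was called in RNA by edgeR's quasi-likelihood test or by DESeq2, and 2 had an unadjusted p under 0.05 (Plcb4 at 0.15 ± 0.055 and Prkce at 0.18 ± 0.060, SE, both named after their values were seen). With only mice 1 to 4, 2 of the 12 were called higher and 2 lower, in a setting that called 3273 of 13591 genes tested. In footprints 6 of the 12 were called, 2 higher and 4 lower, where 25.5% of all genes were called, and in one fit over all 14 libraries 3 were called, all lower. On plain library sizes 3 were called higher and 3 lower. The IP3 receptor Itpr1, which releases calcium from the endoplasmic reticulum, fell by 0.27 ± 0.029 in footprints (SE, adjusted p = 3.58e-13, edgeR) and by 0.38 ± 0.066 in TE (SE, adjusted p = 0.00105, edgeR). The Itpr1 calls were kept under all 13 footprint and all 20 TE alternatives. Its relative Itpr2 fell by 0.38 ± 0.083 in footprints (SE, adjusted p = 0.000187, edgeR). Gna11, a Gq class alpha subunit, rose by 0.22 ± 0.060 (SE, adjusted p = 0.00354, edgeR), a call lost in one fit over all 14 libraries (adjusted p = 0.0872, edgeR).

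Along the Gi/o route of the group II and III receptors, 4 of 14 genes were called in RNA, all of them higher, where 3.53% of all genes were called higher. With the title prefix, a code that opens the sample titles, as a block, 2 were called. In footprints 4 were called higher and 1 lower, where 11.9% of all genes were called higher and 13.6% lower. In TE 1 was called lower, against 7.81% of all genes called. With the mouse as a block 2 were called lower in TE, in a setting that called 1812 of 12145 genes tested. The footprint calls were 2, both higher, with DESeq2, in one fit over all 14 libraries or without mouse 3. They were 3, all higher, without mouse 1, 2, 4 or 9. Kcnj3 and Kcnj9 encode subunits of GIRK potassium channels, which Gi/o opens. Kcnj9 rose by 0.31 ± 0.064 in RNA (SE, adjusted p = 0.0110, edgeR), but was at 0.022 in the exon columns (adjusted p = 0.837, edgeR). Its call was also lost without mouse 2 (adjusted p = 0.0557, edgeR) or 4 (0.0504). Kcnj3 rose by 0.26 ± 0.063 in footprints (SE, adjusted p = 0.000640, edgeR), a call kept under all 13 alternatives. The adenylyl cyclase gene Adcy2 rose by 0.21 ± 0.057 in footprints (SE, adjusted p = 0.00314, edgeR), also kept under all 13. Adcy9 rose by 0.24 ± 0.054 in RNA (SE, adjusted p = 0.0164, edgeR), a call lost without mouse 4 (adjusted p = 0.0656, edgeR). Adcy1 (0.18) and Kcnj3 (0.21) in RNA lost the call without any 1 of mice 1, 2, 3, 4, 6 or 7, with adjusted p-values (edgeR) up to 0.112 and 0.142, and when blocked by title prefix (0.0536 and 0.0649). In footprints, Gnaz, a Gi/o class alpha subunit (0.23), lost it without mouse 2, 3 or 9 (up to 0.0594), and Adcy9 (0.21) without mouse 1, 3, 4 or 10 (up to 0.139). Adcy5 (-0.25 in TE) lost it without mouse 1, 2, 3, 4 or 9 (up to 0.211) and with that block (0.0639).

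Proteins linked to depression driven by group I receptors formed the last list. Of 10 genes, 1 was called higher in RNA, 2 were called higher and 3 lower in footprints, and 1 was called lower in TE. In these fits the shares over all genes tested were 7.41% for RNA, 25.5% for footprints and 7.81% for TE, so 1 of 10 is near the background. With the mouse as a block, which called 1812 of 12145 genes tested, 2 were called higher and 2 lower in TE. The footprint calls were 2 higher and 1 lower on plain library sizes and in one fit over all 14 libraries. The RNA calls were 3 higher without mouse 8, where 1763 of 13561 genes were called. They were 2 higher and 2 lower with only mice 1 to 4 (3273 of 13591 genes called) and 1 higher and 1 lower with DESeq2 (1142 of 13507). Arc, which removes AMPA receptors from synapses and is also an immediate early gene, went from 83.6 ± 0.0449 to 564 ± 8.57 CPM in footprints (SD, n = 3 each). The log2 difference was 2.75 ± 0.040 (SE, adjusted p = 5.14e-77, edgeR). The control SD of Arc is far below those of Shank3 (83.3 ± 3.54 CPM) and Kcnj3 (81.6 ± 5.02 CPM) in control footprints. It is thus a poor guide to the spread between mice. In RNA Arc rose by 1.73 ± 0.30 (SE, adjusted p = 0.00454, edgeR), a call lost with only mice 5 to 8 (1.07, adjusted p = 0.115, edgeR). Map1b, a microtubule-associated protein and known FMRP target, went from 3263 ± 41.8 to 2266 ± 18.2 CPM in footprints (SD, n = 3 each). It fell by 0.53 ± 0.019 in footprints (SE, adjusted p = 3.63e-43, edgeR) and by 0.40 ± 0.068 in TE (SE, adjusted p = 0.000711, edgeR), and both calls were kept under all alternatives.

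**Figure D5:**
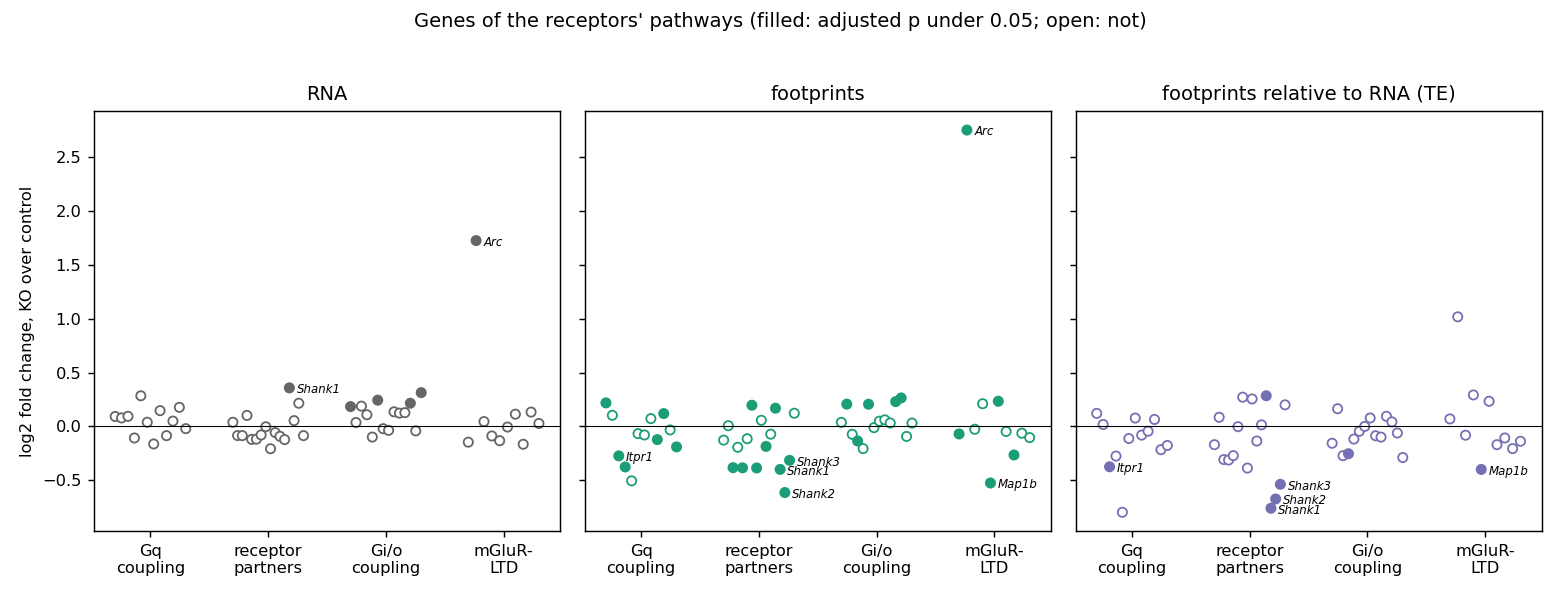
Log2 fold change of KO over control for the 52 genes of the 4 pathway lists in RNA, footprints and TE; filled points have an adjusted p under 0.05, and the points of a list are spread sideways for legibility. Arc is the highest point (2.75 in footprints), and Shank1, Shank2, Shank3, Itpr1 and Map1b are the labelled falls in TE.

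Markers of cell types and regions moved between genotypes too, and their part in the receptor differences was not tested. The counts of called markers stand against 7.41% of all genes called in RNA and 25.5% in footprints. Several lists stood well above those shares, among them 5 of 7 striatum and 4 of 4 hypothalamus markers in footprints. Others were near or below them, such as 2 of 6 astrocyte and 0 of 5 microglia markers in footprints. The lists are small. Beside the rise of Grm2 RNA, 5 of 6 excitatory neuron markers were higher in KO RNA (2 called). The sums of all 6 were 2493 to 2765 CPM in controls and 3135 to 3408 CPM in KO mice. Most of that rise came from Camk2a (mean of 467 to 785 CPM) and Slc17a7 (1446 to 1658 CPM). In footprints the sums of the 6 excitatory markers overlapped (5564 to 5709 and 5354 to 5617 CPM), with 3 called higher and 1, Camk2a, lower (3156 to 2860 CPM). Also in RNA, oligodendrocyte markers summed to 4884 to 5327 CPM in controls and 4267 to 4594 CPM in KO mice, and precursor markers to 201 to 208 and 176 to 194 CPM. Striatum sums overlapped in RNA (581 to 688 and 668 to 706 CPM), as did astrocyte sums (981 to 1077 and 930 to 1091 CPM), although 2 of 6 astrocyte markers were called lower. Inhibitory neuron sums overlapped too (815 to 848 and 818 to 956 CPM), with Slc32a1 called higher (0.56, adjusted p = 0.000412, edgeR) and Pvalb lower (-0.35, adjusted p = 0.0137, edgeR). Beside the rise of Grm3 footprints, 5 of 6 astrocyte markers were lower in KO footprints (2 called), with sums of 1670 to 1714 CPM in controls and 1559 to 1575 CPM in KO mice. All 4 markers of oligodendrocyte precursors were also lower there (3 called), from 331 to 343 CPM to 246 to 275 CPM. Beside the fall of Grm5 footprints, 6 of 7 markers of striatum, where Grm5 is known to be abundant, were higher in KO footprints (4 called higher and 1 lower), from 1191 to 1229 CPM to 1321 to 1380 CPM. None of the excitatory neuron, oligodendrocyte, precursor, astrocyte or striatum markers was at 0. Hypothalamus markers were lower in KO mice in both assays, with 4 of 4 called in footprints (89.2 to 97.5 CPM against 32.0 to 34.6) and 3 of 4 in RNA (31.3 to 61.2 against 12.8 to 18.7). In footprints, inhibitory neuron markers summed to 1621 to 1667 CPM in controls and 1694 to 1721 CPM in KO mice (3 of 6 called higher, 1 lower), oligodendrocyte markers to 8194 to 8353 and 8007 to 8049 CPM (1 of 6 higher, 3 lower) and thalamus markers to 73.0 to 82.8 and 60.7 to 64.5 CPM (2 of 4 lower). Choroid plexus markers summed to 12.1 to 16.1 and 6.88 to 11.9 CPM (1 of 3 tested called lower). Endothelium sums overlapped (1 of 5 called higher, 1 lower), as did microglia sums (381 to 403 and 391 to 401 CPM).

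For each member, the 2 genes with the most similar pattern were sought among the 8918 genes averaging 10 CPM or more in both assays, by Pearson's r of log2 CPM over 14 libraries, centred within each assay. The libraries share genotype, so these values are a description. The closest were Slc32a1 (0.94) and Dynll2 (0.93) for Grm2, Vps25 (0.97) and Vsnl1 (0.96) for Grm3, Ttc3 (0.95) and Cntn4 (0.93) for Grm5, and Bai1 (0.96) and Cit (0.95) for Grm7. For Grm4, Ptchd1 and Hmbox1 reached 0.80 each, and for Grm8, Msantd4 reached 0.81 and Ankmy2 0.80. The 2 least covered members thus had no partner as close as the other 4.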

How the data were processed

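Per the labels, RNA and ribosome footprints were sequenced from mouse cortex. The authors deposited whole-number counts per gene, with no normalization. The submitters' processing notes name Bowtie2, STAR 2.5, featureCounts and Subread 1.4.6 and the builds mm9 and mm10. The annotation, strand setting and counted region are not given in the sources used here. RNA columns without a suffix were used, since they cover the same genes as the footprint columns. Genes without a value there (2849) were left out. Tests used edgeR 4.0.16 (quasi-likelihood F test, two-sided, R 4.3.3) with TMM and filterByExpr at a minimum count of 10, without a block, and Benjamini-Hochberg adjustment over all genes tested. Standard errors were derived from the F statistic. DESeq2 1.42.0 was an alternative. The scripts were tested on simulated counts. Mice 1 to 4 were in both assays, which pairs them by animal per the labels. Deviations from the group mean hardly correlated between the assays of a mouse (r from -0.013 to 0.034). Named were the 6 members, Fmr1, up to 4 called genes of largest change per pathway list and comparison, and the 2 most alike genes per member; some that the rule names are not reported here. Members, lists and rules were chosen with earlier results of these data known. Marker lists for inhibitory neurons, oligodendrocytes, microglia, endothelium, thalamus, hypothalamus and choroid plexus were also summed. Protein and promoter sequences are not used here. Spans of Grm5, Grm7 and Grm8 overlap 2, 1 and 3 other genes in RefSeq (GRCm38.p6), none with values in the columns used.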

Additional observations from a re-analysis of the deposited data

Results flagged for a closer look

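Within each genotype, the RNA values of the 6 members and the total counts (14 groups of 4 libraries) were searched for a lone high or low mouse, and 2 groups had one, both for Grm8. Chance alone marks about 1 group in 20. In controls, mouse 1 was at 45.8 CPM against 37.8 to 38.6 CPM in the others, a gap of 0.90 of the whole range. In KO mice, mouse 5 was at 40.4 CPM against 36.4 to 36.7 CPM in the others, a gap of 0.94 of the range. KO mouse 5 also stood apart from KO mice 2, 4 and 7 over all genes. Without control mouse 1 the Grm8 RNA log2 fold change was -0.022, and without KO mouse 5 it was -0.13, and neither was called.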

How the results depend on the processing

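Each member's log2 fold change was recomputed under the alternatives, 306 values in all. Direction and call were kept in 269, the call was lost in 22 (16 of them Grm7 TE), gained in 5 and the direction turned in 10, all of those in results that were not called. The turned values were 0.030 for Grm8 footprints and 0.021 for Grm5 TE on plain library sizes, 0.012 for Grm8 RNA with only mice 5 to 8, 0.024 for Grm5 TE with the mouse number as a replicate block and 0.019 for Grm5 TE with only mice 1 to 4 (chosen after seeing the data). Leaving out 1 mouse at a time gave -0.19 to 0.028 for Grm4 footprints, -0.099 to 0.070 for Grm8 footprints, -0.085 to 0.17 for Grm8 TE and -0.078 to 0.013 for Grm5 TE. The number of genes called in RNA (1001) was 36 with near-identical libraries summed, 88 with only mice 5 to 8, 3273 with only mice 1 to 4 and 356 to 1763 with 1 mouse left out (501 without mouse 1, 361 without 2, 650 without 3, 356 without 4, 500 without 6, 376 without 7, 1763 without 8). In footprints (3102) it was 1801 with DESeq2 and 1673 in one fit over all 14 libraries. In TE (949) it was 1812 with the mouse as a replicate block, 1809 with only mice 1 to 4, 579 with near-identical libraries summed and 419 to 1289 with 1 mouse left out (419 without mouse 2, 464 without 4). The mouse block changed no call of a member other than that of Grm7. The title prefix as a block left 958, 3199 and 787 calls, and edgeR's newer quasi-likelihood method (chosen after seeing the data) 1014, 3123 and 904. With exon columns the control ratios were 1.26 for Grm2, -0.030 for Grm3, -0.39 for Grm4, -1.03 for Grm5, 0.43 for Grm7 and -0.30 for Grm8. The cause of these shifts was not tested.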
